A study of Homo sapiens with 8 samples.

Results

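Metallothioneins and the genes of the zinc response were followed through 8 RNA sequencing libraries of LS174T, a human colon adenocarcinoma cell line. The 9 genes, out of 57736 in each library's table, were 6 metallothioneins (MT2A, MT1E, MT1F, MT1G, MT1M and MT1X), the zinc sensing transcription factor MTF1, the zinc exporter SLC30A1 and the zinc importer SLC39A10. They were picked by symbol with the doxycycline comparisons of these libraries already known. Their doxycycline differences are therefore given as descriptions, and a gene is called in them when it passed an adjusted p of 0.05 across all tested genes. All 9 genes were found in the tables, and 8 passed the filter on low values, MT1M being the exception.

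Metallothioneins are small, cysteine-rich proteins that bind zinc and copper and buffer the free metal in a cell. MTF1 binds zinc through its zinc fingers when the metal rises, moves to metal response elements in promoters and switches on metallothionein genes and SLC30A1, whose product (ZnT1) carries zinc out of the cell. SLC39A10 encodes ZIP10, which carries zinc in, and work in mouse and zebrafish showed that MTF1 can repress it. In the intestinal epithelium these genes take part in zinc uptake and storage.

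Both lines of the study were LS174T derivatives that overexpressed the Tet repressor and carried a doxycycline-inducible short hairpin RNA. One line's hairpin targeted ASCL2, which encodes a stem cell transcription factor of the gut. The other line's hairpin, in a pTER-derived vector, targeted the long noncoding RNA WiNTRLINC1, and its positive clones were screened by RT-PCR. The groups were the ASCL2 line with doxycycline at 1 ug/ml for 3 days, the ASCL2 line without it, and the WiNTRLINC1 line with and without the same treatment, with 2 libraries in each. Titles and source names set the groups, since in all 8 samples the genotype entry gives the opposite hairpin target. No doxycycline-treated cells without a hairpin were analysed here, so the drug and the hairpin cannot be told apart. Whether replicates came from separate cultures is not given in the labels. The p-values therefore reflect library-to-library spread, which may be technical.

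The deposited values are whole numbers, apparently read counts scaled by 1 factor per library, and each library totalled between 21524463 and 22941231 with 31503 to 33959 genes above 0. ASCL2 itself stood at 532 and 586 with doxycycline and 2855 and 3373 without it in the ASCL2 line, a log2 difference of −2.47 (SE 0.117, limma, adjusted p = 3.93e-09). In the WiNTRLINC1 line it stood at 805 and 697 with doxycycline and 2540 and 2034 without it, a log2 difference of −1.60 (limma, adjusted p = 3.46e-07). WiNTRLINC1 was not analysed here. The 12 markers of colon epithelium were all detected, with summed values of 137876 to 236915 per library, whereas the immune markers summed to 38 to 119 and the endothelial markers to 14 to 43.

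Promoter windows are shown because metallothioneins and SLC30A1, both known targets of MTF1, went opposite ways in these cells. RefSeq promoter windows on GRCh38.p14 were found for 5 of the 9 genes, and MT1E, MT1F, MT1G and MT1M had no entry. The search covered the 250 bases before the start for the core of the metal response element, TGCACNC or TGCGCNC, on both strands, and matches are in capitals. The window of MT2A lies at chr16:56608334-56608583 on the plus strand and that of MT1X at chr16:56682220-56682469 on the plus strand. That of SLC30A1 lies at chr1:211579162-211579411 on the minus strand. The window of MT1H, a further metallothionein gene between MT1G and MT1X, lies at chr16:56669564-56669813 on the plus strand. Each window is written 5′ to 3′ on the strand of its gene.
MT2A: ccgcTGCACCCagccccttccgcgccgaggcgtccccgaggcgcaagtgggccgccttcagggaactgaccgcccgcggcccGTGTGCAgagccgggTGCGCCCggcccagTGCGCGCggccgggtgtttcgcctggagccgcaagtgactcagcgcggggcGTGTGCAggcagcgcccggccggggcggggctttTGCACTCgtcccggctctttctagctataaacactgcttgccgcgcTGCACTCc
MT1X: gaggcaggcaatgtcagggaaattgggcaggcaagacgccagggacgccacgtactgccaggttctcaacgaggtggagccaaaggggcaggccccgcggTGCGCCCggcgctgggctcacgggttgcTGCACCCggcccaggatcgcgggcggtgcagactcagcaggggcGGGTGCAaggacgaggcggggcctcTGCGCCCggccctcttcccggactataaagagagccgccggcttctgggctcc
MT1H: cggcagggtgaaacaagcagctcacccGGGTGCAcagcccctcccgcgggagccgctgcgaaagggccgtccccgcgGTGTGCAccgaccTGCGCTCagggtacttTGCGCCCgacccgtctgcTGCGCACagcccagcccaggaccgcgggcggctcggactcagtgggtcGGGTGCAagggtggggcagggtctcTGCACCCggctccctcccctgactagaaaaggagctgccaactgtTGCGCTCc
SLC30A1: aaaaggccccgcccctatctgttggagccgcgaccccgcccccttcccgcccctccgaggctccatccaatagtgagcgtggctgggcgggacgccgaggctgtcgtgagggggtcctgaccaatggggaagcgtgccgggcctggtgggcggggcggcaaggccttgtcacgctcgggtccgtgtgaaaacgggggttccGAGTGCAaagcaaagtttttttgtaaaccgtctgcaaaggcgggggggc
The MT2A window held 7 matches, 5 forward and 2 reverse, between 8 and 246 bases before the start. The MT1X window held 4, between 53 and 150 bases before the start, and the MT1H window held 8. The windows of MT1B and MT4, family genes at 0 to 6 in all libraries, held 3 each. The SLC30A1 window held 1, on the reverse strand, 49 bases before the start. The MTF1 window and both SLC39A10 windows held no match. Among all 35116 promoter windows of the same length, 24.8% held at least 1 match, 0.37% at least 4 and 0.0313% at least 7. The cut-offs of 4 and 7 are the counts of MT1X and MT2A themselves. A match is a run of letters and does not show that the factor binds. Whether the matches bear on the doxycycline differences was not tested.

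MT2A, the most widely expressed metallothionein of human tissues, was lower with doxycycline in both lines. Its values were 545 and 624 with doxycycline and 1827 and 1725 without it in the ASCL2 line. They were 325 and 306 with doxycycline and 1109 and 713 without it in the WiNTRLINC1 line. Every treated library was below every untreated library of its line. Such a separation of 2 libraries from 2 was also seen in members that were not called. Nothing is read from it here or for the genes below. The log2 difference was −1.60 ± 0.153 (SE, 3.04-fold lower) in the ASCL2 line and −1.49 ± 0.153 (2.81-fold lower) for the WiNTRLINC1 line, and both were called. The untreated WiNTRLINC1 pair was the most uneven of the 4 pairs for this gene.

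MT1X, the metallothionein nearest to the downstream end of the cluster, followed the same course. It stood at 188 and 194 with doxycycline and 472 and 441 without it in the ASCL2 line. The WiNTRLINC1 line gave 90 and 95 with doxycycline and 259 and 217 without it. The groups did not overlap in either line. The log2 differences were −1.25 ± 0.144 (2.38-fold lower) in the ASCL2 line and −1.35 ± 0.144 (2.55-fold lower) for the WiNTRLINC1 line, both called.

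MT1E had the highest value of the metallothioneins in every library. It measured 1701 and 1979 with doxycycline and 3302 and 4016 without it in the ASCL2 line, a log2 difference of −0.99 ± 0.096 (1.98-fold lower). For the WiNTRLINC1 line the values were 2259 and 2231 with doxycycline and 3445 and 3514 without it, a log2 difference of −0.63 ± 0.096 (1.55-fold lower). Both were called, and in neither line did the groups overlap.

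MT1G, a metallothionein known to be zinc inducible in intestinal cells, was lowered more in the ASCL2 line. It measured 369 and 398 with doxycycline and 1017 and 1182 without it in the ASCL2 line. The WiNTRLINC1 line had 543 and 575 with doxycycline and 722 and 789 without it. The log2 difference was −1.51 ± 0.105 (2.86-fold lower) in the ASCL2 line and −0.43 ± 0.105 (1.35-fold lower) for the WiNTRLINC1 line, and both were called. The WiNTRLINC1 call was lost without WiNTRLINC1 doxycycline replicate 1 (−0.39) and without WiNTRLINC1 untreated replicate 2 (−0.37), as well as with no filter or no mean-variance trend.

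MT1F, another member of the MT1 group, was far scarcer in the WiNTRLINC1 line. It stood at 104 and 105 with doxycycline and 382 and 384 without it in the ASCL2 line, a log2 difference of −1.86 ± 0.263 (3.64-fold lower). Values in the WiNTRLINC1 line were 17 and 20 with doxycycline and 53 and 29 without it, a log2 difference of −1.05 ± 0.263 (2.07-fold lower). Both were called, but the second rests on low and uneven values. It was −0.94 without WiNTRLINC1 doxycycline replicate 1 and −0.63 without WiNTRLINC1 untreated replicate 1, and was called in neither case. The call was also lost with no filter, with no mean-variance trend and with the line fitted alone, at the same size. MT1M, whose values ran from 3 to 10 over all libraries, was too low to test.

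**Figure D1:**
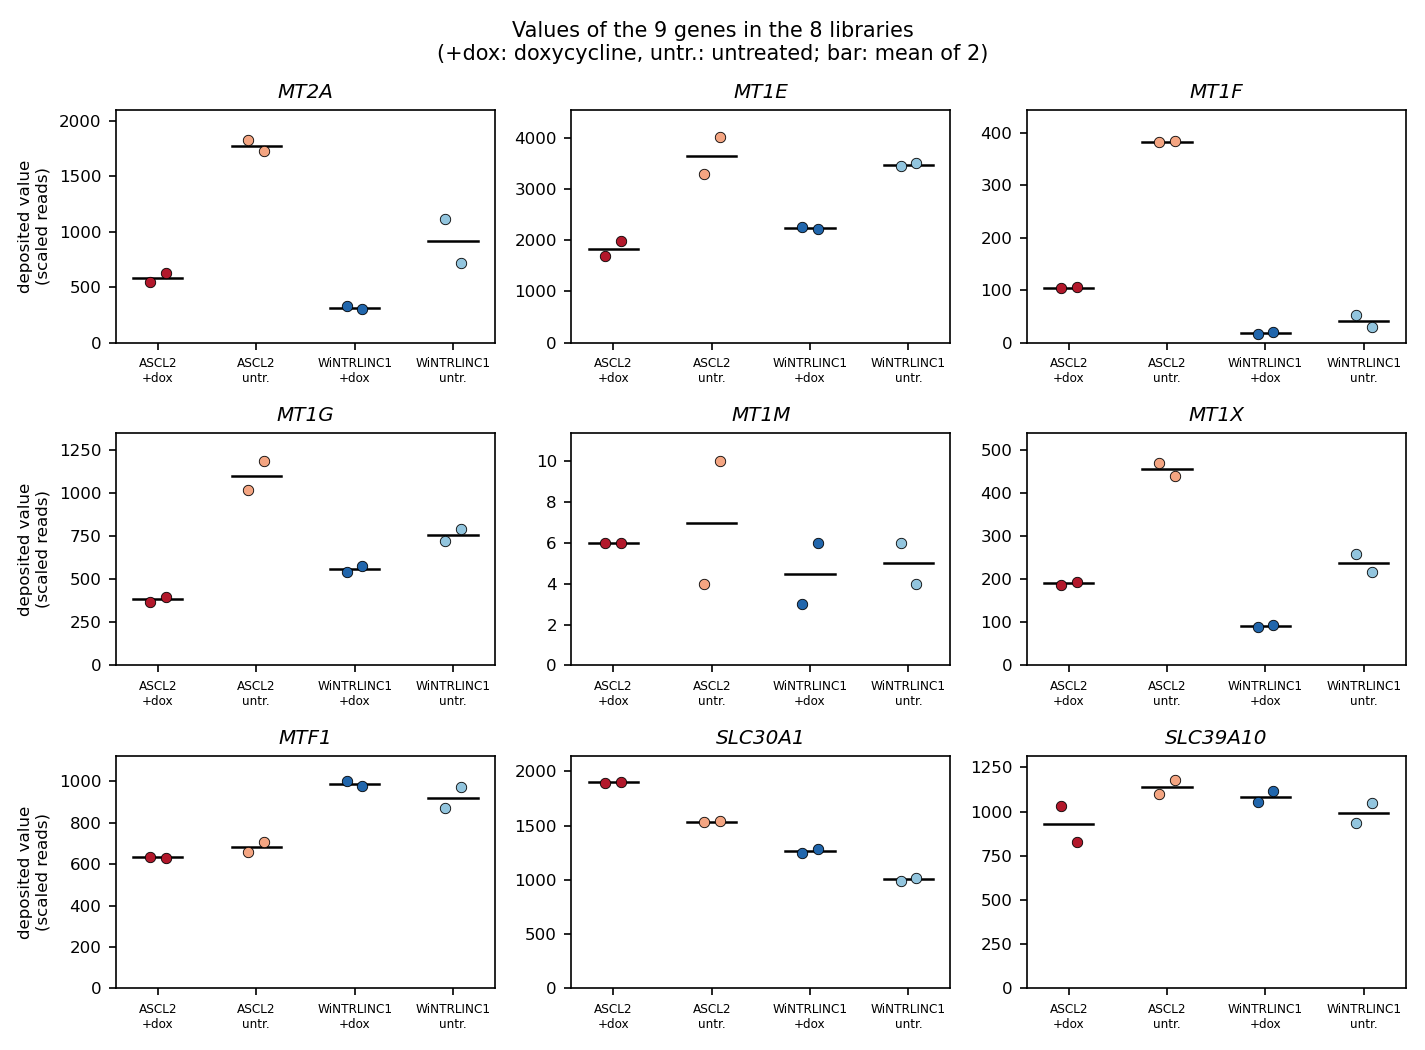
Deposited values of the member genes in each library, 1 panel a gene, with doxycycline-treated libraries left of untreated ones in each line. Each point is 1 library and each bar the mean of 2; for MT2A the treated points of the ASCL2 line lie at 545 and 624 and the untreated ones at 1827 and 1725.

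MTF1, the sensor itself, was called in neither line. It measured 635 and 631 with doxycycline and 660 and 707 without it in the ASCL2 line, a log2 difference of −0.11 (95% interval −0.31 to 0.09). The WiNTRLINC1 values were 1002 and 977 with doxycycline and 870 and 974 without it, a log2 difference of 0.10 (−0.10 to 0.30). The treated libraries lay just below the untreated ones in the ASCL2 line and just above them in the WiNTRLINC1 line. These intervals reflect the library-to-library spread of MTF1 RNA, which may be technical. They say nothing of MTF1 protein or activity.

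SLC30A1 moved the opposite way to the metallothioneins. It stood at 1897 and 1901 with doxycycline and 1532 and 1542 without it in the ASCL2 line. The WiNTRLINC1 line showed 1252 and 1289 with doxycycline and 990 and 1017 without it. All treated libraries were above the untreated ones of their line, and replicates lay close together. The log2 differences were 0.31 ± 0.077 (1.24-fold higher) in the ASCL2 line and 0.34 ± 0.077 (1.27-fold higher) for the WiNTRLINC1 line, both called. The ASCL2 call was lost without ASCL2 doxycycline replicate 1 (0.31) or replicate 2 (0.30), and the WiNTRLINC1 call without WiNTRLINC1 doxycycline replicate 2 (0.32), although the size hardly moved. Both calls were also lost with no mean-variance trend.

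SLC39A10 did not pass in either line. It measured 1034 and 830 with doxycycline and 1097 and 1177 without it in the ASCL2 line, a log2 difference of −0.29 (95% interval −0.52 to −0.06). WiNTRLINC1 cells had 1052 and 1115 with doxycycline and 934 and 1046 without it, a log2 difference of 0.13 (−0.10 to 0.36). Treated libraries lay below untreated ones in the ASCL2 line and above them in the WiNTRLINC1 line. The ASCL2 difference depended on its doxycycline replicates, at −0.45 and called without replicate 1 and −0.14 and not called without replicate 2. It was also called with a filter of 50, with equal library totals (−0.34) and with quantile normalization (−0.33).

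Of the 8 tested members, 5 were called lower, 1 higher and 2 not called in the ASCL2 line, with a median log2 difference of −1.12. The counts were the same in the WiNTRLINC1 line, with a median of −0.53. Over all 22100 tested genes, 26.6% were called in the ASCL2 line (13.9% higher and 12.7% lower). The share was 18.6% for WiNTRLINC1 cells (9.54% higher and 9.03% lower), and the median log2 difference was 0.01 in each line. Because the members were chosen on these comparisons, nothing is read from their counts against those shares. In bulk RNA, fewer expressing cells and less RNA per cell cannot be told apart.

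**Figure D2:**
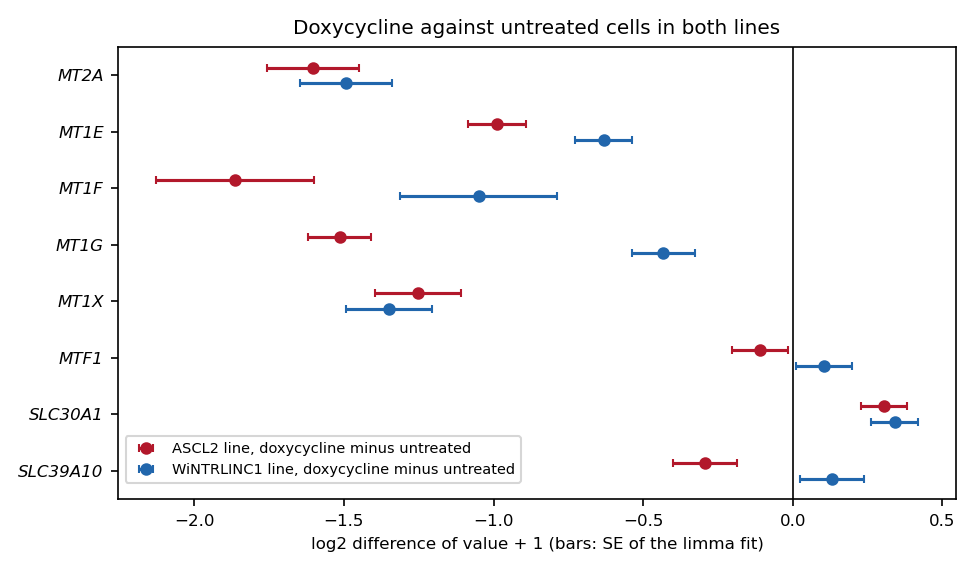
Log2 difference, doxycycline over untreated, of each tested member in the ASCL2 line and the WiNTRLINC1 line, with bars of 1 SE. The 5 metallothioneins lie below 0 in both lines (−1.60 and −1.49 for MT2A) and SLC30A1 lies above 0 in both (0.31 and 0.34).

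The sizes of the 2 responses were set against each other as the WiNTRLINC1 difference minus the ASCL2 difference. Across all genes 15% were called in this contrast (7.39% higher and 7.6% lower), and of the 8 members only MT1G was, at 1.08 ± 0.149 on the log2 scale (2.12-fold less lowering in the WiNTRLINC1 line). MT1F (0.81 ± 0.372), SLC39A10 (0.43 ± 0.152) and MT1E (0.36 ± 0.136) were not called. MT2A (0.11, 95% interval −0.35 to 0.58) and MT1X (−0.10, −0.53 to 0.34) were not called either, and their intervals leave room for sizeable differences in both directions. Without ASCL2 doxycycline replicate 1 SLC39A10 was also called (0.58), without ASCL2 untreated replicate 1 MT1E was (0.50), and without WiNTRLINC1 untreated replicate 1 MT1F was (1.24). The lowest values were 0.27 for SLC39A10 without ASCL2 doxycycline replicate 2, 0.22 for MT1E without ASCL2 untreated replicate 2 and 0.39 for MT1F without WiNTRLINC1 untreated replicate 2.

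Without doxycycline the lines already differed. The same untreated libraries entered the doxycycline comparisons, so the members' values are again descriptions. Here 55.2% of all tested genes were called, 25.7% higher and 29.5% lower in the WiNTRLINC1 line, so a call by itself is common. MT1F showed the widest gap of the members, at 53 and 29 in the untreated WiNTRLINC1 line against 382 and 384 in the untreated ASCL2 line, a log2 difference of −3.25 (9.54-fold lower). MT2A (log2 difference −0.997), MT1X (−0.94) and MT1G (−0.54) were called lower too. SLC30A1 was also called lower in the untreated WiNTRLINC1 line (−0.61), and MTF1 was called higher (0.43). MT1E was not called (−0.07, 95% interval −0.27 to 0.14) and its values overlapped between the lines. SLC39A10 was not called either (−0.20).

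Levels can be set against each other per kilobase of the longest coding transcript (GENCODE 29). In the untreated ASCL2 line the order was MT1E (4529 to 5509 per kb), MT2A (2195 to 2324), MT1G (1619 to 1882), MT1X (820 to 877), MT1F (554 to 557), SLC30A1 (280 to 282), SLC39A10 (202 to 217), MTF1 (82.8 to 88.7) and MT1M (4.83 to 12.1). In the treated WiNTRLINC1 line MT1G (865 to 916 per kb) stood above MT2A (389 to 414). In the untreated WiNTRLINC1 line MT1G (1150 to 1256 per kb) and MT2A (907 to 1411) overlapped, as did SLC39A10 (172 to 193) and SLC30A1 (181 to 186). MT1E led in all 4 groups on this scale. The order of the other genes depends on the length used. Per kilobase of merged exons, MT1G (mean 1466) stood above MT2A (1367) in the untreated ASCL2 line. SLC30A1 (281) stood there above MT1X (257) and MT1F (203). For the untreated WiNTRLINC1 line the merged-exon means were 1007 for MT1G and 701 for MT2A.

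The 20 metallothionein genes and pseudogenes in the tables, 15 of them on chromosome 16, were also summed in each library. The sum was 3463 and 3902 with doxycycline and 8459 and 8874 without it in the ASCL2 line, a log2 difference of −1.24 ± 0.0761 (2.36-fold lower). For the WiNTRLINC1 line it was 4030 and 4064 with doxycycline and 6945 and 6510 without it, a log2 difference of −0.73 ± 0.0761 (1.66-fold lower). MT1E supplied more of the member metallothioneins in treated cells, at 58.4% and 59.9% with doxycycline against 47.1% and 51.8% without it in the ASCL2 line. The WiNTRLINC1 share was 69.8% and 69.0% with doxycycline and 61.6% and 66.7% without it. Pseudogenes and MT1HL1 made up 11.8% to 18.3% of the family sum.

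**Figure D3:**
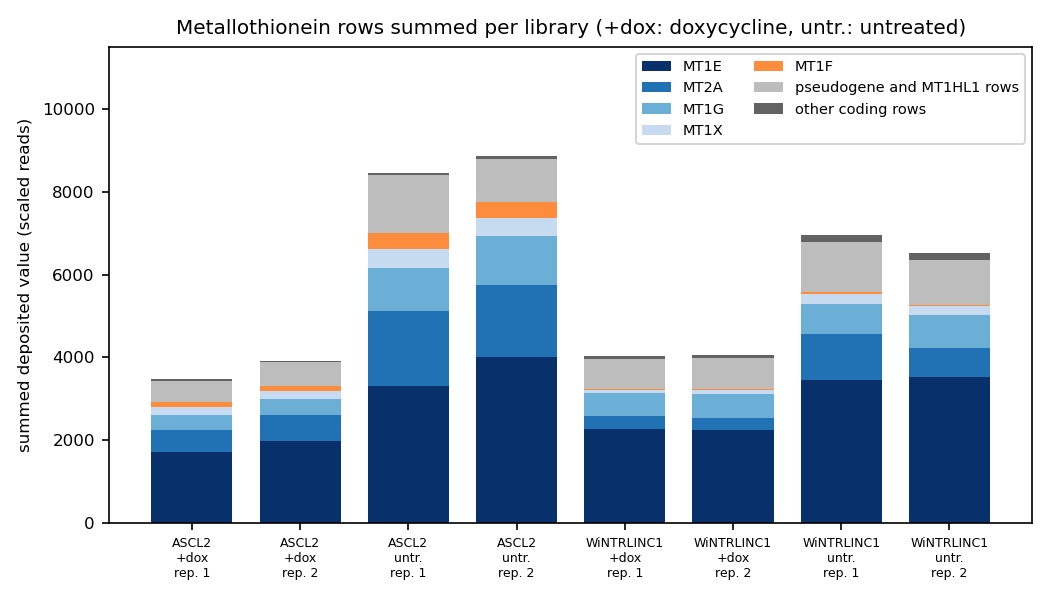
Summed deposited values of the metallothionein family in each library, stacked by gene, with treated libraries left of untreated ones in each line. The ASCL2 line reads 3463 and 3902 with doxycycline and 8459 and 8874 without it, and the WiNTRLINC1 line 4030 and 4064 with it and 6945 and 6510 without it.

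Metallothionein transcripts resemble one another, and how the authors' counting split shared reads is not given in the sources used here. Of the 50-base windows of MT1G, 14.3% occurred exactly in another family transcript, against 10.6% for MT1E, 4.88% for MT2A, 3.59% for MT1F and 0% for MT1X. No 100-base window of these 5 genes was shared. The 50-base share was 54.7% for the pseudogene MT1P3, 27.7% for MT1XP1 and 15.7% for MT2P1, so the values of these pseudogenes are uncertain. The use of strand in counting is likewise not given, so reads of overlapping antisense genes cannot be told apart.

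Among the 13 tested rows of the family, 11 were called lower and 2 not called in the ASCL2 line, and 9 were called lower and 4 not called in the WiNTRLINC1 line. Over all genes 12.7% were called lower in the first line and 9.03% in the second. Nothing is read from the family's counts, since they include the chosen members. Pseudogene rows may also hold reads of the genes whose sequence they share, so the 13 rows are not separate measurements. The median log2 difference of the 13 was −1.25 in the first line and −0.72 in the second. The WiNTRLINC1 count fell to 4 without WiNTRLINC1 doxycycline replicate 1 and to 5 without WiNTRLINC1 untreated replicate 1. MT1H, the gene with 8 promoter matches, measured 19 and 20 with doxycycline and 35 and 52 without it in the ASCL2 line (log2 difference −1.09, limma, adjusted p = 0.00647). In the WiNTRLINC1 line it measured 67 and 86 with doxycycline and 151 and 157 without it (−1.01, limma, adjusted p = 0.0142). It was higher in the untreated WiNTRLINC1 line than in the untreated ASCL2 line (1.83, limma, adjusted p = 3.27e-05), opposite to MT1F, MT1G and MT1X beside it. The MT1H calls were lost without ASCL2 untreated replicate 2 (−0.81) in the first line, and without WiNTRLINC1 doxycycline replicate 1 (−0.83) or either untreated WiNTRLINC1 replicate in the second. MT3 and MT4, known from brain and from squamous epithelium, stayed between 0 and 6 in all libraries.

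The cluster's neighbours on chromosome 16 were looked at beside the shares over all genes of 13.9% higher and 12.7% lower in the ASCL2 line, and 9.54% and 9.03% in the WiNTRLINC1 line. Of the 3 nearest listed and tested genes on each side, 6 in all, 4 were called lower and 1 higher in the ASCL2 line (median log2 difference −0.37), and 3 lower and 0 higher in the WiNTRLINC1 line (median −0.26). The 3 became 1 without WiNTRLINC1 doxycycline replicate 1 or either untreated WiNTRLINC1 replicate, and the 1 higher in the ASCL2 line became 0 without ASCL2 doxycycline replicate 1 or untreated replicate 2. BBS2, a subunit of the ciliary BBSome, on the MT2A side of the cluster, fell by 0.95 on the log2 scale in the ASCL2 line (limma, adjusted p = 1.68e-06). It fell by 0.27 in the WiNTRLINC1 line (adjusted p = 0.0397), a call lost in 9 of the 18 alternative settings. OGFOD1, on the same side, was the gene called higher in the ASCL2 line (0.31, limma, adjusted p = 0.00964). It was not called in the WiNTRLINC1 line (0.16). NUP93, a nuclear pore scaffold protein next to MT1X, fell by 0.50 in the ASCL2 line (limma, adjusted p = 0.000289) and by 0.99 in the WiNTRLINC1 line (adjusted p = 8.53e-07).

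**Figure D4:**
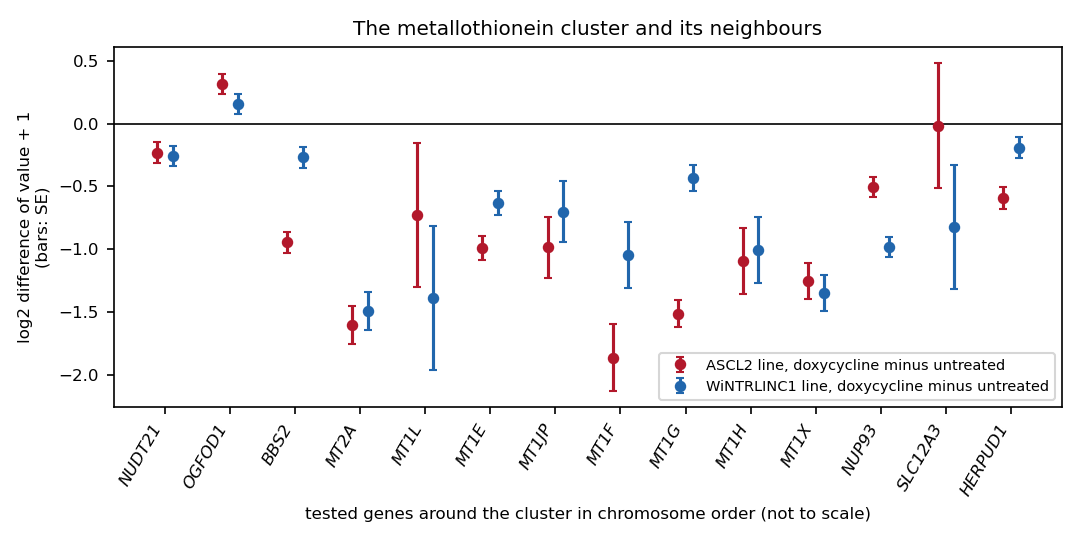
Log2 difference, doxycycline over untreated, of tested genes in and beside the metallothionein cluster in chromosome order, for both lines, with bars of 1 SE. MT2A, MT1E, MT1F, MT1G and MT1X lie below 0 in both lines, and of the flanking genes NUP93 lies at −0.50 and −0.99.

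Other zinc transporters were counted as lists, beside which all tested genes had shares of 13.9% higher and 12.7% lower in the ASCL2 line, and 9.54% and 9.03% in the WiNTRLINC1 line. Of 7 tested SLC30 exporters, SLC30A1 included, 5 were called higher and none lower in the ASCL2 line (median log2 difference 0.31), and 1 higher and 1 lower in the WiNTRLINC1 line (median −0.09). SLC30A7, which loads zinc into the secretory pathway, rose by 0.75 on the log2 scale in the ASCL2 line (limma, adjusted p = 0.000509). SLC30A6, a Golgi transporter that pairs with SLC30A5, fell by 0.62 in the WiNTRLINC1 line (limma, adjusted p = 0.000748). Of 11 tested SLC39 importers, SLC39A10 included, 5 were called higher and 2 lower in the ASCL2 line. In the WiNTRLINC1 line, where 18.6% of all genes were called, 3 were called higher and none lower. The count called lower in the ASCL2 line was smaller in 8 of the 18 alternative settings. SLC39A6, a plasma membrane importer, rose in both lines (0.71, limma, adjusted p = 9.77e-06, and 0.35, adjusted p = 0.00545). SLC39A8, which carries zinc and manganese, fell by 0.59 in the ASCL2 line (limma, adjusted p = 0.00109) and rose by 0.39 in the WiNTRLINC1 line (adjusted p = 0.0224). The second SLC39A8 call was lost without WiNTRLINC1 doxycycline replicate 2 or untreated replicate 1 (0.29), and that of SLC39A6 without WiNTRLINC1 doxycycline replicate 1. The exporters called higher in the ASCL2 line fell to 2 without either doxycycline replicate or untreated replicate 1 of that line, and the importers called higher fell to 3 without ASCL2 doxycycline replicate 2. The importers called higher in the WiNTRLINC1 line fell to 1 without either doxycycline replicate or untreated replicate 1 of that line.

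Lists of copper, iron, stress and hormone response genes were counted too. Beside them, 13.9% of all tested genes were called higher and 12.7% lower in the ASCL2 line, 26.6% together. For the line against WiNTRLINC1 the shares were 9.54% higher and 9.03% lower, 18.6% together. Of 12 copper handling genes 7 were called higher in the ASCL2 line and 3 for the WiNTRLINC1 line, with none and 1 lower; the 7 fell to 3 without ASCL2 doxycycline replicate 2 and to 4 without untreated replicate 2, and the 3 ranged from 1 to 5 without WiNTRLINC1 doxycycline or untreated replicate 2. ATP7B, a copper pump, rose by 1.17 in the ASCL2 line (limma, adjusted p = 1.74e-07) and by 0.42 in the WiNTRLINC1 line (adjusted p = 0.00248). HMOX1, heme oxygenase, an enzyme induced by heavy metals and oxidants, measured 893 and 944 with doxycycline and 306 and 283 without it in the ASCL2 line (1.64, limma, adjusted p = 6.4e-07). In the WiNTRLINC1 line it measured 122 and 133 with doxycycline and 101 and 113 without it (0.25, limma, adjusted p = 0.228), and the difference of the responses was called (−1.39, adjusted p = 0.000145). HSPB1, a small heat shock protein, fell by 0.90 in the ASCL2 line (limma, adjusted p = 4.17e-06) and by 0.88 in the WiNTRLINC1 line (adjusted p = 7.63e-06). Of 9 glucocorticoid response genes, 2 were called higher and 1 lower in the ASCL2 line, and none higher and 1 lower in the WiNTRLINC1 line. The 9 include the receptor gene itself, NR3C1, which stood at only 2 to 12 over all libraries. The 1 lower in the ASCL2 line became 0 without either doxycycline replicate or untreated replicate 2, and the none higher in the other line became 1 without WiNTRLINC1 untreated replicate 1. Of 12 iron genes, 4 were called higher in the ASCL2 line, and 2 higher and 4 lower in the WiNTRLINC1 line, where the 4 fell to 2 without either doxycycline replicate or untreated replicate 1. The count of iron genes called higher in the WiNTRLINC1 line was smaller in 5 of the 18 alternative settings. Over those settings the iron genes called lower there reached a low of 1. Of 12 chaperone genes, 1 was called higher and 3 lower in the ASCL2 line, and 1 higher and 2 lower in the WiNTRLINC1 line. The 3 became 1 without ASCL2 doxycycline replicate 2, and in the WiNTRLINC1 line the 2 became 1 and the 1 became 0 without doxycycline replicate 2 or untreated replicate 1. Of 8 detoxification genes, 4 were called higher and 2 lower in the ASCL2 line, and 2 higher and 1 lower in the WiNTRLINC1 line. Over the 18 alternative settings those called higher in the WiNTRLINC1 line reached a low of 0. The 2 lower became 0 or 1 without any single ASCL2 library, and the 2 higher became 1 without any single WiNTRLINC1 library.

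**Figure D5:**
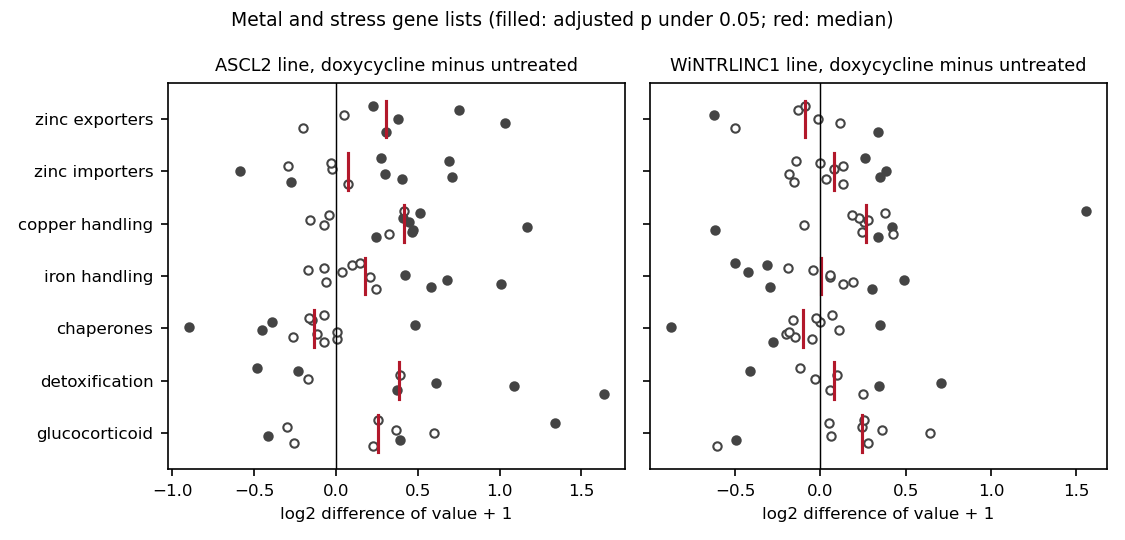
Log2 difference, doxycycline over untreated, of each tested gene of the zinc, copper, iron and stress lists in the ASCL2 line (left) and the WiNTRLINC1 line (right), with filled points for called genes and a red bar at each list's median. The zinc exporters have their median at 0.31 in the ASCL2 line and −0.09 for the WiNTRLINC1 line, and HMOX1 is the ASCL2 point at 1.64 among the detoxification genes.

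Of the fibroblast markers, 3 were tested, and 1 was called in the ASCL2 line, where 26.6% of all tested genes were called. It was COL1A1, a fibrillar collagen, at 60 and 99 with doxycycline and 200 and 222 without it (−1.44, limma, adjusted p = 0.00251). COL3A1, another collagen, stood at 41 and 26 with doxycycline and 42 and 25 without it (0.01, limma, adjusted p = 0.992), and LUM stood between 0 and 6 in that line. The 6 markers other than COL1A1 summed to 61 and 31 with doxycycline and 60 and 49 without it. The epithelial markers moved in both directions. Beside them, 13.9% of all tested genes were called higher and 12.7% lower in the ASCL2 line. For the WiNTRLINC1 line these shares were 9.54% and 9.03%. In the ASCL2 line 6 of 12 were called lower and 1 higher, among them the cadherin CDH17 (−1.03, limma, adjusted p = 9e-07) and the intestinal transcription factor CDX2 (−0.76, adjusted p = 2.22e-05), while their sum, mostly keratins, was 212764 and 234637 with doxycycline and 236915 and 210648 without it. In the WiNTRLINC1 line 3 were called lower and 4 higher, and the sums did not overlap, at 141123 and 137876 with doxycycline and 162670 and 155002 without it. KRT18, an epithelial keratin, was 4.72-fold lower there (−2.24, limma, adjusted p = 6.17e-09), and CDH17 was higher (0.74, adjusted p = 3.07e-05). The part of these markers in the metallothionein values was not tested.

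By Pearson's r with MT2A over the 8 libraries, among 13207 genes averaging 100 or more and metallothioneins left out, the closest gene was TNS2 (r = 0.993), which encodes tensin 2, a focal adhesion protein. Its values were 453 and 483 with doxycycline and 805 and 794 without it in the ASCL2 line, and 326 and 303 with doxycycline and 578 and 503 without it in the WiNTRLINC1 line. VPS26B, a retromer subunit, followed at 0.986, DNAJC22 and FAM234B at 0.982 each, and HINT2 at 0.981. These are descriptions over libraries that fall into 4 groups, and many genes that differ between the groups will correlate.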

How the data were processed

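RNA from 8 libraries was sequenced on an Ion Proton, per the labels' protocols. The deposited values are whole-number scores per Ensembl gene, which from their low values look like read counts that the authors scaled by 1 factor per library and rounded, so no count model was used and true depth is unknown. Cutadapt, TopHat2 2.0.9, Cufflinks and DESeq are named in the submitters' processing notes, with hg19, GRCh37 and mm9 as builds and no roles; the counting program is not given in the sources used here. Ensembl IDs were matched to symbols with GENCODE 29, on another build, used for names, transcript and exon lengths and gene order only.

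Values were log2 transformed with a pseudocount of 1, keeping genes at 10 or more in at least 2 libraries (22100 genes). All 8 libraries in 4 groups were fitted with limma 3.58.1 (R 4.3.3, mean-variance trend), with Benjamini-Hochberg adjustment over all tested genes; folds are on the log2(value + 1) scale and understate changes of low genes. Members, lists and tests were chosen with earlier results of these data known. Members and the tested family, neighbour and targeted genes could be named, plus up to 4 called genes of each list per line by smallest adjusted p, and the 5 genes most like MT2A. The cell type markers and the values of MT1B, MT3, MT4 and NR3C1 that are named were chosen after they were seen. Alternatives changed the pseudocount, filter, trend, scaling, libraries fitted, replicate block and family summing, or left out each library. A further gene near the cluster is not reported here, and the neighbours were limited to the 3 on each side after their values were seen.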

Additional observations from a re-analysis of the deposited data

Results flagged for a closer look

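MT1G was picked out because its doxycycline response differed between the lines by a test of the difference itself. The WiNTRLINC1 log2 difference minus the ASCL2 log2 difference was 1.08 ± 0.149 (SE). Its values were 543 and 575 with doxycycline and 722 and 789 without it in the WiNTRLINC1 line, and 369 and 398 with doxycycline and 1017 and 1182 without it in the ASCL2 line. MT1G was a member chosen with these results known, so the value is a description. With all metallothionein rows summed, the difference of that sum was 0.50. Leaving out single libraries gave 0.97 to 1.19 for MT1G.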

How the results depend on the processing

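With 18 alternative settings, 539 member differences kept their direction and side of the threshold, 14 lost a call, 11 gained one and 4 changed sign. In the setting with the family summed, each metallothionein entry in these totals holds the value of the sum, not of that gene. The calls counted there as gained by MT2A, MT1E and MT1F are therefore those of the sum. The sign changes were in values not called in the reported fit. For the MT1X difference of responses, a change came with the family summed, where the 0.50, which was called, belongs to the sum. The difference of MT1X itself changed sign without WiNTRLINC1 untreated replicate 1 (0.0302, from −0.224 up to this value over single libraries left out). That of MT2A changed sign without WiNTRLINC1 untreated replicate 2 (−0.207, up to 0.43 without replicate 1). MT1E between untreated lines did so without ASCL2 untreated replicate 2 (0.0754). Genes called fell to 2395 with no filter and 1873 with no trend in the WiNTRLINC1 line (4104 in the reported fit), to 3410 with no trend in the ASCL2 line (5884), and to 1914 with no filter and 1313 with no trend for the difference of responses (3314). Leaving out 1 library gave 2398 to 4131 calls in the WiNTRLINC1 line, 3665 to 5862 in the ASCL2 line (lowest without ASCL2 doxycycline replicate 2), 2315 to 2891 for the difference and 10458 to 12002 between untreated lines. Members called fell to 3 in the WiNTRLINC1 line with no trend, where MT1F, MT1G and SLC30A1 lost their calls, and SLC30A1 lost its ASCL2 call too; without single libraries they numbered 4 to 6 there, 5 to 6 in the ASCL2 line and 1 to 2 for the difference. The causes were not tested. Among other named genes 132 calls were lost and none changed sign. Same-numbered replicates did not deviate together (r of −0.052 for ASCL2 and 0.105 for WiNTRLINC1); with the replicate block 5962, 4182, 3403 and 12261 genes and 6, 6, 1 and 6 members were called in the ASCL2 line, the WiNTRLINC1 line, the difference and the untreated lines. Low values limit MT1F in the WiNTRLINC1 line and leave MT1M untested.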
